A study of Mus musculus with 16 samples.

Results

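The transcripts of 9 genes of the complement system were followed in the ventricles of 16 mice. They were C1qa, C1qb and C1qc, which encode the chains of C1q, the components C3 and C4b, the inhibitors Serping1 and Cd55, and the anaphylatoxin receptors C3ar1 and C5ar1. Members were found by matching Ensembl gene identifiers to these mouse symbols. All 9 were present among 22372 protein-coding genes, and all 9 passed the filter of at least 10 normalized counts in at least 4 libraries, which kept 13331 genes for testing.

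The libraries came from pieces of heart ventricle of C57BL/6J mice that were 10 to 12 weeks old when the experiment began. TAC mice had the aortic arch tightened by a suture, which loads the left ventricle with pressure, and sham mice had the operation without the suture. Mice were then injected with THZ1, which binds CDK7, CDK12 and CDK13 covalently and thereby blocks kinases of the transcription machinery, or with vehicle. This gave 4 groups of 4 mice, called TAC-Veh, TAC-THZ1, Sham-Veh and Sham-THZ1. THZ1 was given by intraperitoneal injection at 10 mg/kg with 2 doses per day, beginning on day 1 after the operation and ending on day 60. No allele or transgene set the groups apart. The drug was injected into the whole animal, so that its target cells were not limited to the heart, and pieces of whole ventricle mix all cell types.

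Complement is a cascade of plasma and cell surface proteins. C1q recognises antibody, dying cells and other surfaces and activates the proteases C1r and C1s, which cleave C4 and then lead to cleavage of C3, the step at which the pathways meet. Fragments of C3 and C5 call in myeloid cells through the receptors encoded by C3ar1 and C5ar1. Serping1 encodes C1 inhibitor, a serpin that inactivates C1r and C1s, and Cd55 encodes decay-accelerating factor, a membrane protein that takes C3 convertases apart. Liver makes most complement of the plasma, while macrophages are a main source of C1q and many cells of a tissue make C3, C4 and C1 inhibitor locally.

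Library depth was 21.4 to 35.8 M (mega) reads in protein-coding genes, and mitochondrial transcripts took 33.2% to 44.7% of them. The tissue label was borne out by cardiomyocyte markers, which were summed over 5 genes and were high in every library. Alb, the liver transcript for albumin, was at 0 in all 16 libraries. The sum of the 5 listed hepatocyte markers, Alb among them, was low but not constant. It was 2.65 to 5.74 in Sham-Veh, 5.34 to 9.54 in Sham-THZ1, 10.0 to 30.6 in TAC-Veh and 6.93 to 47.0 in TAC-THZ1. Ttr, the 1 of them that was tested, was called higher with TAC (1.89 log2), beside 21.4% of all genes. The cardiomyocyte sum was 811414 to 896300 in Sham-Veh, 380675 to 572897 in TAC-Veh and 615145 to 773076 in TAC-THZ1, and 3 of the 5 markers (Myh6, Ryr2 and Tnni3) were called lower with TAC, beside 23.6% of all genes. Its part in the changes of the members was not tested. Of the 4 TAC-THZ1 libraries, 2 were above a limit of 1000 normalized counts of neutrophil transcripts, which was set after the data had been seen. The sum of the 6 listed neutrophil markers was 7108 in replicate 1 and 3075 in replicate 3 of TAC-THZ1, against 940 in replicate 2 and 207 in replicate 4. It was 49.9 to 97.3 in Sham-Veh, 121 to 276 in TAC-Veh and 81.0 to 537 in Sham-THZ1, where replicate 2 was the highest. Replicate 2 of TAC-THZ1 was thus under the limit but also above every library of the other groups. Ly6g, a marker that defines neutrophils, was at 0 in the 12 libraries of the other groups and at 1.27 to 9.83 in TAC-THZ1. These values are too low for the filter, so Ly6g was not tested, and 1.27 is 1 read in replicate 2. Calls that rest on TAC-THZ1 are therefore given with the 2 libraries above the limit, called neutrophil-rich, and without them. The 2 libraries kept (replicates 2 and 4) were also the 2 lowest of TAC-THZ1 for all 9 members, so that leaving out the others lowers each member's mean by construction. The sum of 12 macrophage markers split in the same way, at 15712, 8137, 12522 and 9088 in replicates 1 to 4 of TAC-THZ1. The sum of 4 erythroid markers, transcripts of red blood cells, also varied. It was 5839 to 6404 in Sham-Veh, 5190 to 9358 in Sham-THZ1, 7122 to 12434 in TAC-Veh and 6564 to 29268 in TAC-THZ1. The part of blood left in the pieces was not tested.

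Most of the 9 transcripts were more abundant under pressure overload, and none passed the test as lower. In TAC-Veh against Sham-Veh, 6 of 9 members were higher at an adjusted p under 0.05, against a background of 21.4% of all genes tested that were higher in this comparison. The same 6 had no overlap between the 4 TAC-Veh and the 4 Sham-Veh libraries, against 18.2% of all genes. The median log2 fold change of the members was 0.84, beside -0.0030 over all genes. With the added requirement of a log2 fold change of at least 1, which the study used, 2 members remained (C4b and Serping1), against 4.64% of all genes. With THZ1 in the constricted hearts, 1 of 9 members (Cd55) was lower, against 14.2% of all genes, and none was higher, against 15.1%. The same gene was the single one without overlap in that direction, against 10.5% of all genes. By the stricter limit of the study, a log2 fold change of at most -0.89, 0 members were lower with limma, DESeq2 or edgeR, against 3.62% of all genes, and 2 members (Serping1 and Cd55) had an unadjusted p under 0.05 with limma, both lower. DESeq2 and edgeR each gave 4, of which Serping1 and Cd55 were lower and C3 and C5ar1 higher. The background is large in both comparisons, and the count for the drug is not above it.

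**Figure D1:**
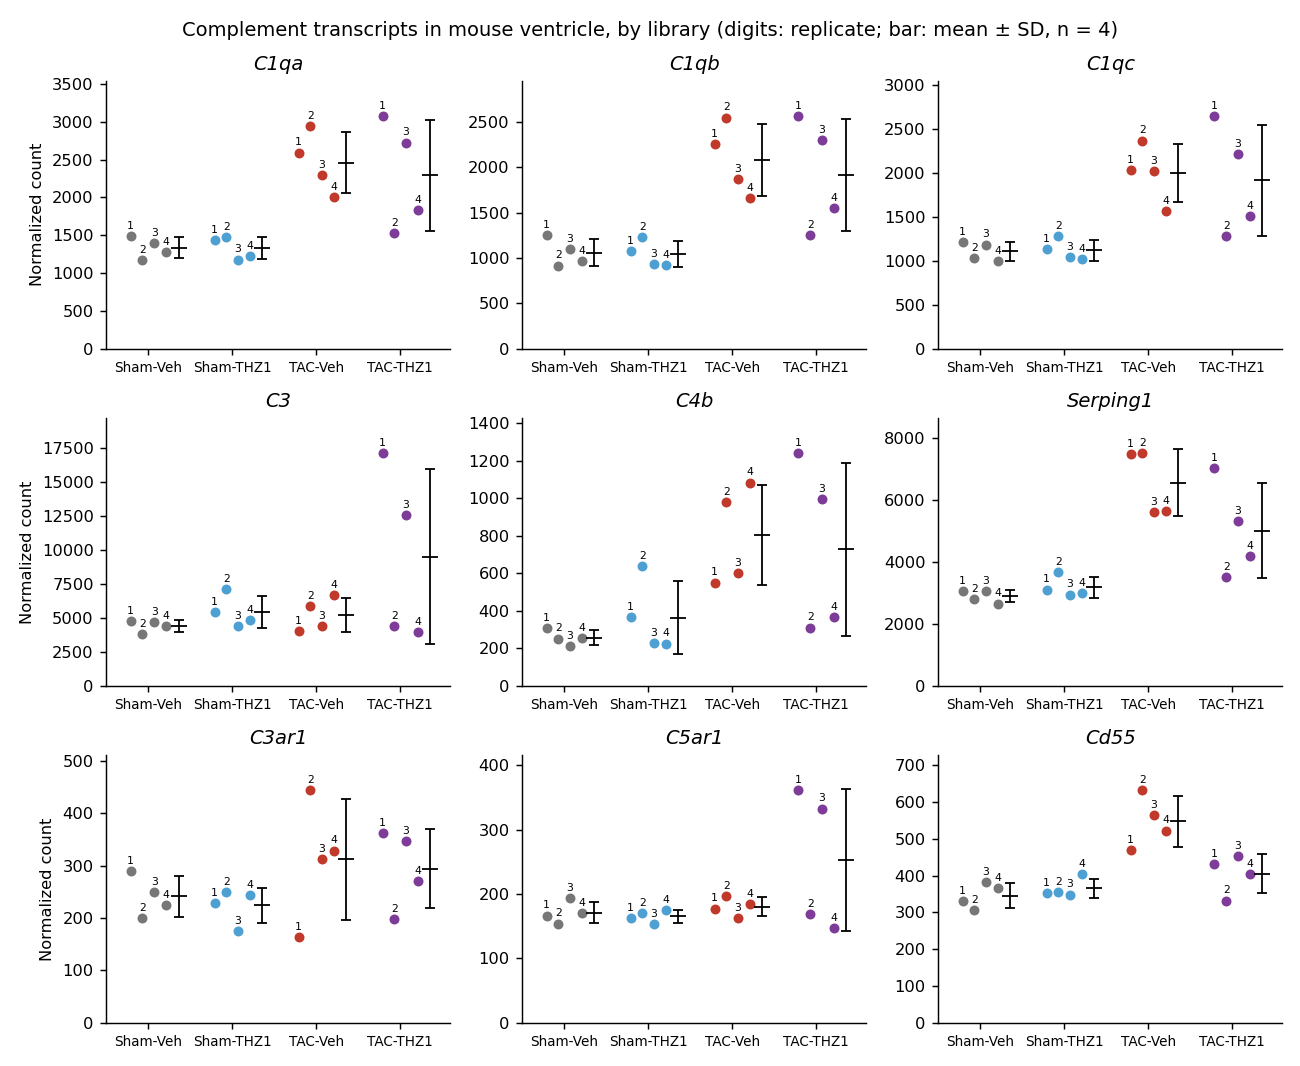
Normalized counts (y axes, from 0) of the 9 transcripts in each of 16 libraries, grouped by surgery and treatment on the x axes, with replicate digits beside the points and the mean ± SD of 4 mice as a black bar. The 3 C1q chains, C4b, Serping1 and Cd55 are higher in every TAC-Veh library than in any Sham-Veh library, while C3 and C5ar1 are high in replicates 1 and 3 of TAC-THZ1.

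C1q is the recognition molecule of the classical pathway. C1qa, C1qb and C1qc lie next to each other on the minus strand of chromosome 4 (NCBIM37), C1qb at 136436044-136442102, C1qc at 136445719-136448980 and C1qa at 136451832-136454718, and their proteins assemble in equal numbers into 1 complex. C1qb, the chain with the largest change with TAC, is shown by the 250 bases before its RefSeq start, at chr4:136886201-136886450 of GRCm38.p6 on the minus strand (136442116-136442365 in NCBIM37, by exact match), because the 3 chains moved together.
C1qb: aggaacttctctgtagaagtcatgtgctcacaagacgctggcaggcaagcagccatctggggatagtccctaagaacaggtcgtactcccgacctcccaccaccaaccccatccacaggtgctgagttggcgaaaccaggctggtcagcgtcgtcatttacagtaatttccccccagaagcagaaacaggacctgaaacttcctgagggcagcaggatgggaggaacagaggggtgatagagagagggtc
The 5 motifs of factors active in myeloid and inflamed cells that were searched on both strands were GAGGAAG (ETS factors of the PU.1 type), TTGCNNAA (C/EBP), TTCNNNGAA (STAT), a pair of GAAA with 2 bases between (the interferon-stimulated response element) and GGG and TTCC with 3 bases between (NF-kB), where N is any base. Each motif was searched on its own, so that matches of different motifs may overlap. None of them was in these 250 bases. Over the 32851 windows of the same length in the RefSeq promoter table, they were found in 10.6%, 9.56%, 7.02%, 2.98% and 4.65%. Windows of 6 members were in that table, and those of C1qa, C4b and Serping1 were not among them. C1qc held GAGGAAG on the minus strand at -194 to -188 from its RefSeq start, in a window that reaches into the GENCODE gene, and C3ar1 held the NF-kB motif on the minus strand at -14 to -5. The C3ar1 window (122806176-122806425 in NCBIM37) also reaches into its GENCODE gene, which begins at 122806179 on the minus strand. Its motif lies upstream of that position. That of C1qc likewise lies upstream of the C1qc gene, which begins at 136448980 on the minus strand.

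C1qa had normalized counts of 1489, 1170, 1400 and 1276 in Sham-Veh and of 2592, 2943, 2293 and 2004 in TAC-Veh. Every TAC-Veh library was above every Sham-Veh library. The log2 fold change was 0.87 (SE 0.18, 95% CI 0.50 to 1.25, adjusted p = 8.68e-04 with limma). C1qb went from 1250, 917, 1100 and 963 in Sham-Veh to 2257, 2550, 1867 and 1661 in TAC-Veh, again without overlap. Its log2 fold change was 0.97 (SE 0.19, 95% CI 0.56 to 1.37, adjusted p = 7.00e-04). C1qc was 995 to 1209 in Sham-Veh and 1559 to 2363 in TAC-Veh, with a log2 fold change of 0.84 and an adjusted p of 0.00127. The 3 chains rose 1.79-fold to 1.96-fold.

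Under THZ1 the TAC-THZ1 libraries split. C1qa was 3079 in replicate 1, 1533 in replicate 2, 2727 in replicate 3 and 1828 in replicate 4 of TAC-THZ1. Replicate 1 was above every TAC-Veh library, and replicates 2 and 4 were below every one of them. The difference from TAC-Veh was -0.14 on the log2 scale for C1qa (95% CI -0.52 to 0.23, adjusted p = 0.576), -0.16 for C1qb and -0.11 for C1qc, none past the threshold. Against Sham-THZ1 (1436, 1476, 1178 and 1223 for C1qa) the TAC-THZ1 values had no overlap. The log2 fold change in this comparison was 0.74 for C1qa (adjusted p = 0.00846), 0.83 for C1qb (adjusted p = 0.00654) and 0.72 for C1qc (adjusted p = 0.00992). In sham hearts the drug moved C1qa by -0.01 (95% CI -0.38 to 0.37) on the log2 scale.

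Leaving out the 2 neutrophil-rich TAC-THZ1 libraries, a choice made after the data had been seen, changed these calls. The fall of the mean is by construction, as said, and the spread of the 2 that remained was taken from all groups. With them alone C1qa was lower than in TAC-Veh by a log2 difference of -0.54 (adjusted p = 0.0149), C1qb by -0.56 (adjusted p = 0.0280) and C1qc by -0.51 (adjusted p = 0.0191). Against Sham-THZ1 the 3 chains were then no longer past the threshold, with log2 differences of 0.34, 0.43 and 0.32 and adjusted p of 0.123 to 0.164.

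The chains varied together, with small shifts in their ratios. C1qa over C1qb was 1.15 to 1.33 and C1qc over C1qb was 0.899 to 1.12 across all 16 libraries, and the log2 values of any 2 chains correlated with Pearson's r of 0.989 to 0.997 over these libraries, which share 4 group means and adjacent loci. The mean C1qa over C1qb was 1.27 ± 0.06 (SD, n = 4) in Sham-Veh and 1.18 ± 0.04 in TAC-Veh, and that of C1qc over C1qb was 1.05 ± 0.07 and 0.96 ± 0.08. The genes whose log2 profile was most like the mean of the 3 chains, among 10308 candidates, were Ifitm3 (r = 0.984), Fcer1g (r = 0.983) and Tyrobp (r = 0.976). Fcer1g and Tyrobp encode signalling adaptors of myeloid cells.

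Markers of macrophages, the cells known to make C1q, are given beside it. The sum of 12 macrophage markers was 7786 to 9300 in Sham-Veh and 10532 to 12055 in TAC-Veh, and 3 of the 12 were called higher, beside 21.4% of all genes, namely Cd68 (0.52 log2), Adgre1 (0.66 log2) and Lyz2 (0.69 log2). The other 9 were not called and ran from -0.89 (Timd4) to 0.73 (Fcgr1), with a median over the 12 of 0.29. Csf1r, the receptor that macrophages need to survive, was at 0.28 log2 with an adjusted p of 0.0957. The summed C1q chains were 3495 ± 388 (SD, n = 4) in Sham-Veh and 6534 ± 1112 in TAC-Veh. The ratio of the C1q sum to the macrophage sum was 0.417 ± 0.017 for vehicle and 0.415 ± 0.031 for THZ1 in the sham groups, against 0.575 ± 0.084 for vehicle and 0.536 ± 0.033 for THZ1 after TAC. The lowest TAC library, at 0.455, was above the highest sham library, at 0.440. The ratio depends on the denominator. Per Csf1r it was 2.21 to 2.60 in Sham-Veh and 2.42 to 4.77 in TAC-Veh, which overlapped, and 3.33 to 4.24 in TAC-THZ1 against 2.08 to 2.73 in Sham-THZ1. Per Lyz2 it was 1.08 to 1.19 in Sham-Veh and 1.20 to 1.38 in TAC-Veh, but 1.09 to 1.37 in TAC-THZ1 overlapped 0.943 to 1.22 in Sham-THZ1. In pieces of tissue, more cells of a type and more RNA per cell cannot be told apart, for these and for all transcripts below.

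**Figure D2:**
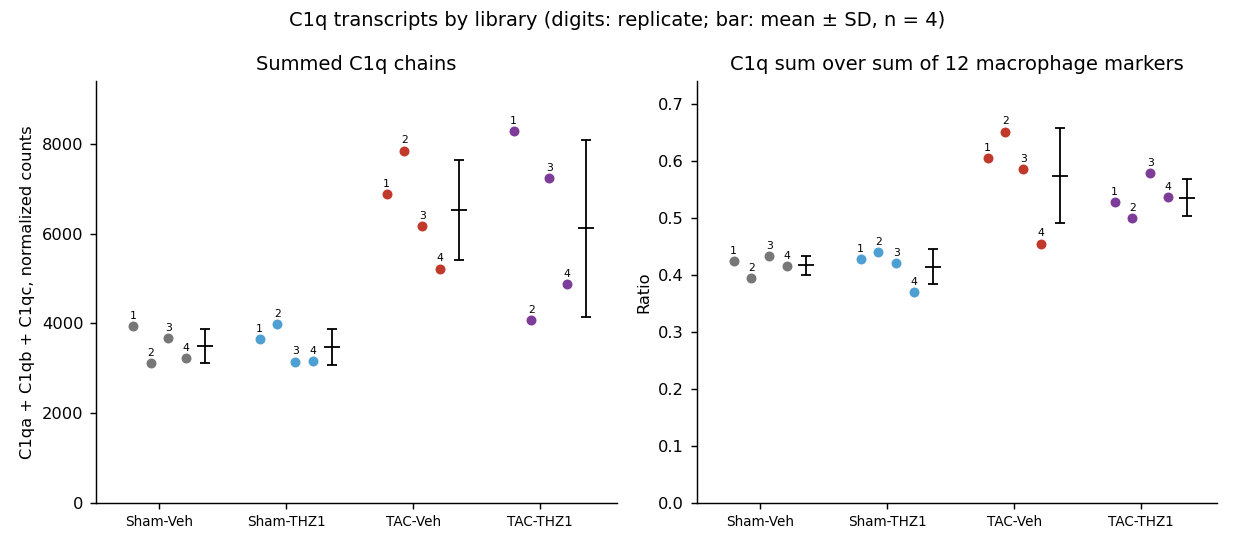
Left, summed normalized counts of C1qa, C1qb and C1qc in each library. Right, that sum over the sum of 12 macrophage markers, a ratio without unit. Points carry replicate digits and black bars are mean ± SD of 4 mice. The ratio is 0.370 to 0.440 in the 8 sham libraries and 0.455 to 0.652 in the 8 TAC libraries.

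Of the components that are cleaved, C4b (chromosome 17, 34865325-34880827, NCBIM37), the substrate of C1s, had the largest change of the 9. It was 309, 251, 211 and 255 in Sham-Veh and 550, 980, 598 and 1083 in TAC-Veh. The groups did not overlap, and the log2 fold change was 1.59 (SE 0.41, 95% CI 0.73 to 2.46, adjusted p = 0.00470). The TAC-THZ1 libraries had 1241, 309, 996 and 365, which spans the range from Sham-Veh to above TAC-Veh. Against TAC-Veh the difference was -0.33 (95% CI -1.19 to 0.53, adjusted p = 0.577), and against Sham-THZ1 it was 0.89 (adjusted p = 0.120). In Sham-THZ1 replicate 2 also stood high, at 637 against 224 to 365. Without replicate 2 of TAC-THZ1, C4b was higher than in Sham-THZ1 (adjusted p = 0.0366), and without the 2 neutrophil-rich libraries it was lower than in TAC-Veh by -1.19 log2 (adjusted p = 0.0268). That last fit keeps the 2 lowest TAC-THZ1 values of C4b. Of the 40-base windows in C4b exons, 40.2% are shared with its neighbour C4a (chromosome 17, 34946037-34960409), so reads of the paralogues may not be fully separated. C4a was not analysed here.

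C3 (chromosome 17, 57343397-57367559, NCBIM37), the component on which all pathways converge, did not pass the test in any of the 5 contrasts. Its 250 upstream bases, at chr17:57228137-57228386 of GRCm38.p6 on the minus strand (57367560-57367809 in NCBIM37), are shown because they hold the only one of the searched motifs in a window that lies wholly upstream. The capitals mark TTGCNNAA at -45 to -38 from the RefSeq start.
C3: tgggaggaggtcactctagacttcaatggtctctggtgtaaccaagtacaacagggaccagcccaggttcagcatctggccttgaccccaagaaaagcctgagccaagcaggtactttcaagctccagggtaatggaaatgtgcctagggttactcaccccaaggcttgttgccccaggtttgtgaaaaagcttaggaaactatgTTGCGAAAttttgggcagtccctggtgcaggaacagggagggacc
C3 was 4745, 3784, 4674 and 4413 in Sham-Veh and 4001, 5864, 4409 and 6662 in TAC-Veh, and these groups overlapped. The log2 fold change was 0.22 (SE 0.36, 95% CI -0.53 to 0.97, adjusted p = 0.635). With THZ1 after TAC it was 17156, 4414, 12593 and 3927. The 2 neutrophil-rich libraries were above every other library of the series, and the other 2 lay within the range of the vehicle groups. The difference from TAC-Veh was 0.61 log2 (95% CI -0.14 to 1.36, adjusted p = 0.208). It was past the threshold without replicate 4 (0.94, adjusted p = 0.0453), and it turned to -0.30 (adjusted p = 0.289) without replicates 1 and 3. In Sham-THZ1 C3 was 5414, 7120, 4377 and 4847, and replicate 2, the highest, was also the library with the most neutrophil transcripts of that group.

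The 2 TAC-THZ1 libraries with the most C3 were also those with the most neutrophil and macrophage transcripts. Between replicates 2 and 4, the macrophage sum (8137 and 9088) and C3 (4414 and 3927) went opposite ways. S100a8, which encodes a calcium-binding protein abundant in neutrophils, was 2840, 321, 1048 and 56.4 in TAC-THZ1 replicates 1 to 4, and S100a9, its partner, was 3518, 488, 1606 and 68.3. Both were higher in TAC-THZ1 than in TAC-Veh, S100a8 by 3.66 log2 (adjusted p = 0.00768) and S100a9 by 3.75 log2 (adjusted p = 0.00862). S100a8 was 17.0 to 96.4 in TAC-Veh, where C3 was not high. Within TAC-Veh, replicate 1 had the highest neutrophil sum (276) and the lowest C3 (4001). Replicate 4 had the lowest sum (121) and the highest C3 (6662). The part of these cells in the C3 values was not tested.

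**Figure D3:**
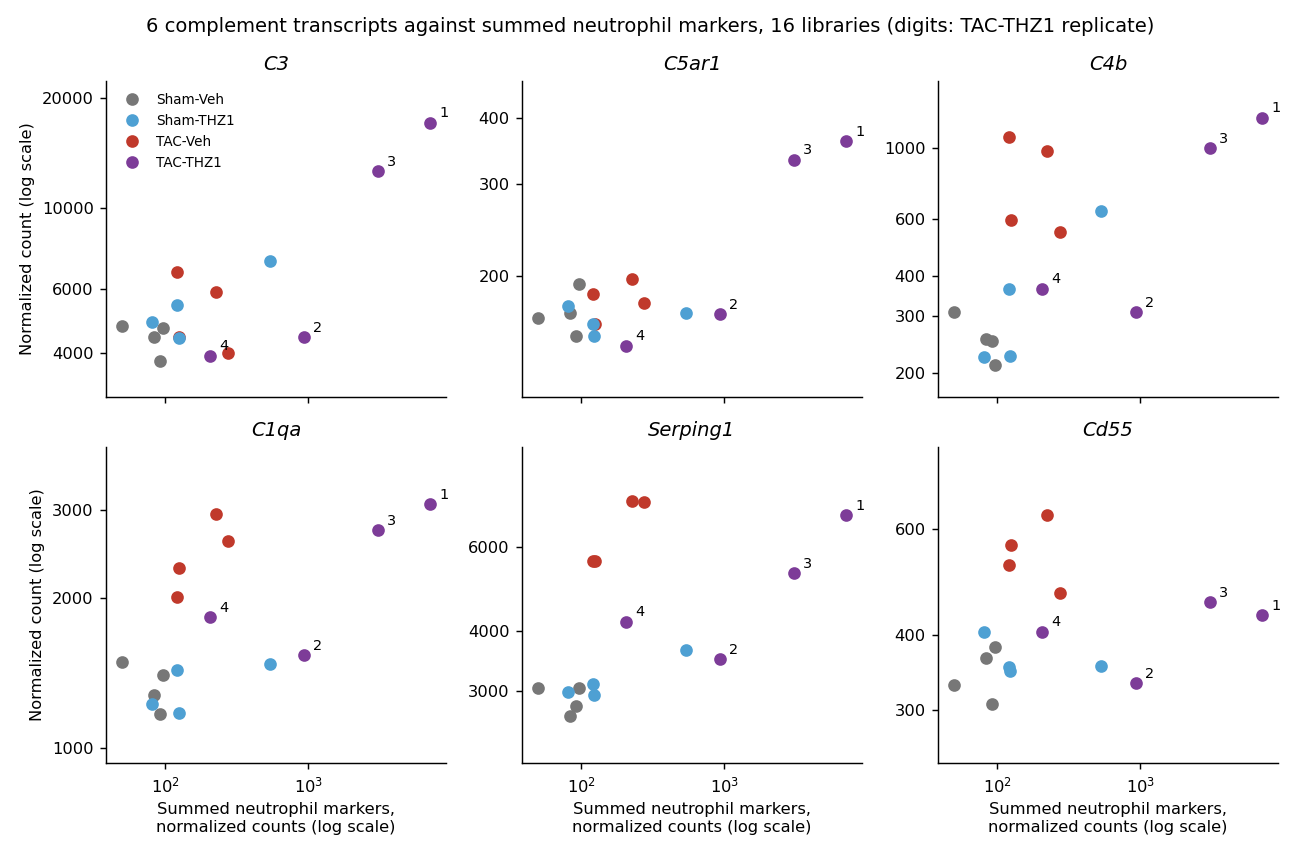
Normalized counts of 6 complement transcripts (y axes, log scale) against the sum of the 6 listed neutrophil markers (x axes, log scale) in 16 libraries, coloured by group, with digits for the TAC-THZ1 replicates. C3 and C5ar1 are highest in replicates 1 and 3 of TAC-THZ1, at marker sums of 7108 and 3075, while Cd55 is below its TAC-Veh values in all 4 TAC-THZ1 libraries.

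Of the inhibitors, Serping1 (chromosome 2, 84605544-84615601, NCBIM37) gave the smallest adjusted p of the members for TAC. It was 3044, 2785, 3042 and 2649 in Sham-Veh and 7473, 7504, 5607 and 5623 in TAC-Veh. The groups were far apart, with a log2 fold change of 1.17 (SE 0.16, 95% CI 0.83 to 1.52, adjusted p = 3.38e-05). In TAC-THZ1 it was 7012, 3493, 5301 and 4189, so that 3 libraries lay below every TAC-Veh library and replicate 1 did not. The difference was -0.43 log2 (SE 0.16, 95% CI -0.77 to -0.08, adjusted p = 0.0598) and did not pass the test. It did without replicate 1 of TAC-THZ1 (-0.60, adjusted p = 0.00555), without replicate 3 of TAC-Veh (adjusted p = 0.0395), without replicate 4 of TAC-Veh (adjusted p = 0.0425) and without both neutrophil-rich libraries (-0.76, adjusted p = 0.00192). The last of these fits keeps the 2 lowest TAC-THZ1 values of Serping1. Serping1 was 2941 to 3651 in Sham-THZ1, and TAC-THZ1 was higher than this by 0.61 log2 (adjusted p = 0.0140), although the values overlapped at 3493. Without both neutrophil-rich libraries that difference was 0.28 (adjusted p = 0.202).

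The genes with the profile most like that of Serping1 over the 16 libraries were Apod, Gpx3 and Serpina3n, each with r of 0.977 to 0.978, and it correlated with C1qb at r = 0.962. Fibroblast markers, which mark one of the tissue sources of C1 inhibitor, moved in the same comparisons. Their sum over 8 genes was 27007 to 30121 in Sham-Veh and 69217 to 146833 in TAC-Veh, and it was 29724 to 43311 after TAC with THZ1, with 6 of 8 called higher with TAC, beside 21.4% of all genes, and 5 of 8 lower with THZ1 in TAC, beside 14.2%. From the same list, Pdgfra and Tcf21, a receptor and a transcription factor of fibroblasts, were at 0.25 and 0.38 log2 with TAC and were not called. The part of the fibroblasts in the Serping1 values was not tested.

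Cd55 (chromosome 1, 132335604-132359321, NCBIM37) was the only member called lower, at an adjusted p under 0.05, with THZ1 in constricted hearts. For this reason its 250 upstream bases are shown, at chr1:130462745-130462994 of GRCm38.p6 on the minus strand (132359322-132359571 in NCBIM37), in which none of the 5 motifs was found.
Cd55: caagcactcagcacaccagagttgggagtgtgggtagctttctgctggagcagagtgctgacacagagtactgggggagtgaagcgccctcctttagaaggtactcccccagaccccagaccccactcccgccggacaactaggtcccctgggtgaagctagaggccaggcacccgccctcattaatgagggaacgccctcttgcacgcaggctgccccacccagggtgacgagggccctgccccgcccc
Cd55 was 330, 306, 382 and 365 in Sham-Veh and 470, 632, 564 and 522 in TAC-Veh, without overlap. The log2 fold change was 0.66 (SE 0.11, 95% CI 0.43 to 0.89, adjusted p = 1.47e-04). The counts under TAC-THZ1 were 431, 332, 453 and 405. All 4 values were below the lowest TAC-Veh value of 470, and they overlapped those of Sham-THZ1, at 353, 354, 349 and 404. The difference from TAC-Veh was -0.43 log2 (SE 0.11, 95% CI -0.66 to -0.21, adjusted p = 0.00703), a level of 0.741 times that under vehicle (95% CI 0.633 to 0.868). The call was kept without any 1 library (highest adjusted p 0.0304). It was lost when only TAC-THZ1 and TAC-Veh were fitted (adjusted p = 0.0538), a fit that called 816 genes lower, against 1899 with all groups. Without both neutrophil-rich libraries the difference was -0.57 (adjusted p = 0.00618). The libraries kept there are the 2 lowest of TAC-THZ1 for Cd55, so that fit could only deepen the difference and adds no support.

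Under THZ1, Cd55 did not pass the test for TAC (0.14 log2, 95% CI -0.08 to 0.37, adjusted p = 0.346). In sham hearts the drug moved it by 0.08 log2 (95% CI -0.15 to 0.31, adjusted p = 0.956). The effect of the drug in TAC minus its effect in sham was -0.51 log2 (SE 0.15, 95% CI -0.84 to -0.19, adjusted p = 0.0429), which made Cd55 the single member past the threshold of this interaction, against 5.62% of all genes with a negative and 4.40% with a positive one. That call was close to the threshold and was lost in 10 of the 16 fits that left out 1 library, with adjusted p of up to 0.0932. Of the other members, Serping1 had an interaction of -0.56 log2 (adjusted p = 0.129) and passed without replicate 1 of TAC-THZ1 (adjusted p = 0.0254). Without both neutrophil-rich libraries 3 members passed, against 5.68% of all genes with a negative interaction, with C4b at -1.56 (adjusted p = 0.0457), Serping1 at -0.90 (adjusted p = 0.00991) and Cd55 at -0.65 (adjusted p = 0.0247). The libraries kept are the lowest of TAC-THZ1 for these genes, so nothing is read from that count or its background. The profile of Cd55 was most like those of Fcrls (r = 0.947), Igsf10 (r = 0.938) and Tmem62 (r = 0.932). Its paralogue Daf2 (Cd55b) shares 19.8% of the 40-base windows of Cd55 exons and had 5 reads in all 16 libraries together.

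The receptors of the anaphylatoxins were the least abundant members per length of transcript along with Cd55 and C4b, and neither passed the test for TAC. C3ar1 (chromosome 6, 122797156-122806179, NCBIM37), the receptor of C3a, was 290, 200, 250 and 225 in Sham-Veh and 163, 444, 312 and 329 in TAC-Veh. Replicate 1 of TAC-Veh lay below all sham values and the other 3 lay above them. The log2 fold change was 0.30 (95% CI -0.22 to 0.81, adjusted p = 0.343), and it was 0.58 (adjusted p = 0.0243) without that library. In TAC-THZ1 C3ar1 was 199 to 361, and the difference from TAC-Veh was -0.04 (95% CI -0.55 to 0.48). Its profile was most like those of Pik3ap1, Oasl2 and Evi2a, with r of 0.932 to 0.944.

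C5ar1 (chromosome 7, 16832092-16844889, NCBIM37), the receptor of C5a that draws neutrophils, was 154 to 194 in Sham-Veh, with ranges of 154 to 175 for Sham-THZ1 and 162 to 197 for TAC-Veh. With TAC its log2 fold change was 0.08 (95% CI -0.38 to 0.53, adjusted p = 0.792). In TAC-THZ1 it was 361, 169, 333 and 147, with the 2 neutrophil-rich libraries above every other library and the others within or below the range of the other groups. The difference from TAC-Veh was 0.38 log2 (95% CI -0.08 to 0.83, adjusted p = 0.201), and it was 0.60 (adjusted p = 0.0305) without replicate 4 and -0.19 (adjusted p = 0.260) without replicates 1 and 3. Against Sham-THZ1 it was 0.50 (adjusted p = 0.0993 with limma), with adjusted p of 0.0280 with DESeq2 and 0.0481 with edgeR. Over the 16 libraries C5ar1 correlated with C3 at r = 0.926, and around the group means at r = 0.933. The 2 highest values of both genes are those of replicates 1 and 3 of TAC-THZ1, and r without these libraries was not computed.

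No member passed the test when THZ1 was given to sham mice. In Sham-THZ1 against Sham-Veh, 0 of 9 were called with limma, against a background of 0.0675% of all genes, and 0 had an unadjusted p under 0.05 with limma, DESeq2 or edgeR. With only the sham libraries in the fit, 1 member had an unadjusted p under 0.05 and none passed after adjustment. Of all 13331 genes, that fit called 287 higher and 178 lower, against 3 and 6 with all groups fitted. The largest difference of a member with all groups fitted was that of C4b, 0.37 log2 (95% CI -0.49 to 1.23). An interval of this width includes changes as large as several of those seen with TAC. In TAC-THZ1 against Sham-THZ1, 4 of 9 members were higher, against 11.4% of all genes, and the 3 C1q chains among them had no overlap, against 15.7%. Without both neutrophil-rich libraries 0 were higher with limma, against 3.27%. In TAC-THZ1 against TAC-Veh, 6 of 9 were lower without those libraries (12.0% of all genes), namely the 3 C1q chains, C4b, Serping1 and Cd55. As the libraries kept are the lowest of their group for these genes, nothing is read from that count or its background. These comparisons share their TAC-THZ1 or TAC-Veh libraries and are not independent of each other.

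**Figure D4:**
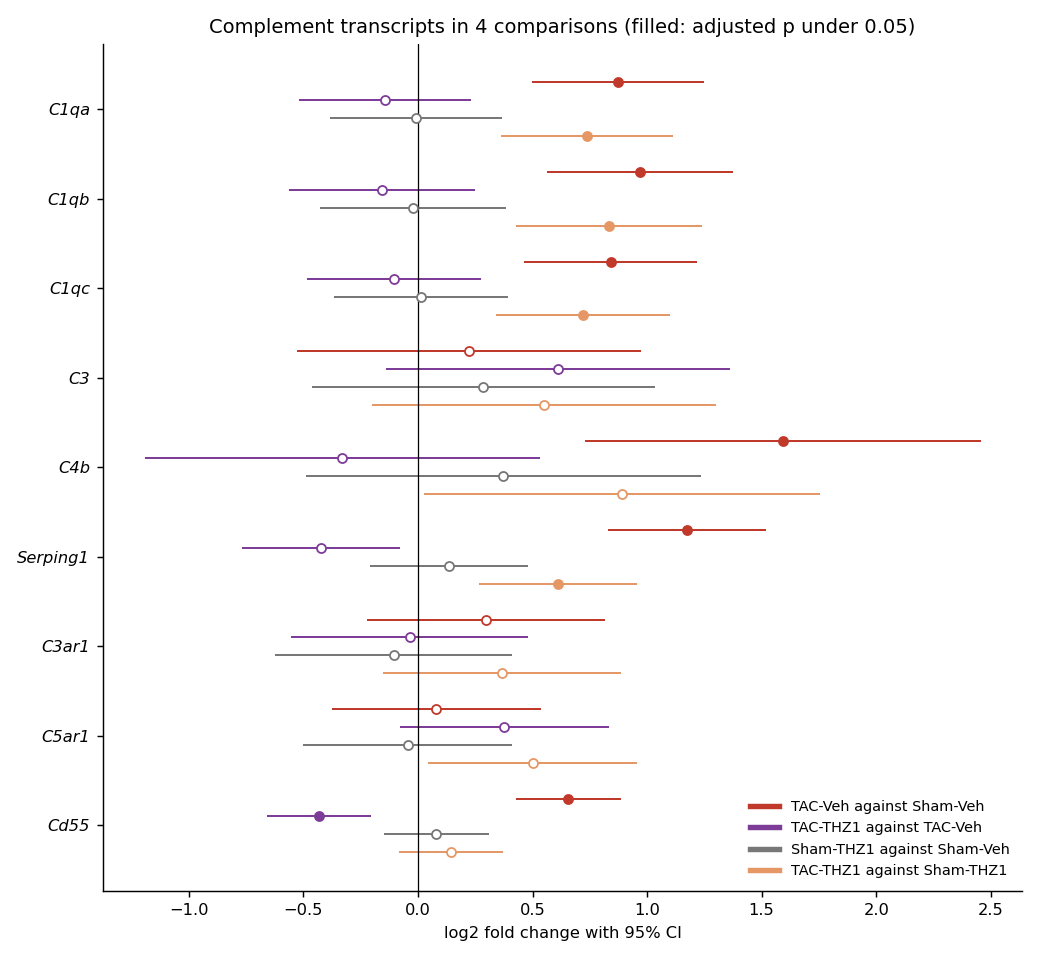
log2 fold changes (x axis) of the 9 transcripts in 4 comparisons, each with its 95% confidence interval (CI) from limma over 16 libraries. Filled points have an adjusted p under 0.05. Red points of C1qa, C1qb, C1qc, C4b, Serping1 and Cd55 lie at 0.66 to 1.59 for TAC under vehicle, and the single filled purple point is Cd55 at -0.43 for THZ1 in TAC.

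Levels of the 9 genes are compared per kilobase of exon. In Sham-Veh, C1qa (1282 ± 135 normalized counts per kilobase, SD, n = 4) and Serping1 (1239 ± 84.4) came first, followed by C1qb (972 ± 138), C3 (858 ± 85.2) and C1qc (572 ± 55.5). Neighbours down to C3 overlapped in their ranges, and C1qc was below C3 and above Cd55 without overlap. The lower tier was Cd55 (71.3 ± 7.03), C5ar1 (66.6 ± 6.44), C3ar1 (56.0 ± 8.89) and C4b (45.0 ± 7.02), each overlapping the next. In TAC-Veh the order was Serping1 (2818 ± 465), C1qa (2364 ± 387), C1qb (1915 ± 365), C1qc (1032 ± 171) and C3 (1020 ± 242), and C4b (141 ± 47.1) headed the lower tier. In TAC-THZ1 only the step from C1qc to C4b was free of overlap.

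The other genes of the pathway were taken from lists of 49 genes, of which 48 were in the table and 27 passed the filter. With TAC under vehicle, 8 of the 27 were higher and 2 lower, beside 21.4% and 23.6% of all genes, with a median log2 fold change of 0.06. With THZ1 in TAC, 5 were lower and 4 higher, beside 14.2% and 15.1%. In sham hearts 0 were called with limma, beside 0.0675% of all genes, and 3 had an unadjusted p under 0.05 (2 with DESeq2 and 1 with edgeR). In TAC-THZ1 against Sham-THZ1, 4 were higher and 1 lower, beside 11.4% and 12.8% of all genes. The interaction was positive for 2 (Vtn and C1qbp) and negative for 1 (Colec12), beside 4.40% and 5.62% of all genes. Leaving out each library in turn, 6 of the 10 calls for TAC and 4 of the 9 for THZ1 in TAC held in every fit. Without the 2 neutrophil-rich libraries, which leaves 2 in TAC-THZ1, 5 of the 9 calls for THZ1 in TAC were kept (Colec12, Clu, Vtn, C1qbp and C7). Those of C1rl, Masp1, Cfp and C8g were lost. Over all genes, 1661 were then higher and 1603 lower, against 2019 and 1899. A lost call need not mean a smaller difference. C1rl went from -0.44 to -0.49 log2 and C8g from 0.81 to 0.91, while Masp1 went from -0.48 to -0.27 and Cfp from 0.47 to 0.21. For TAC under THZ1, C1ra (0.33 log2, adjusted p = 0.0407) and Cd93 (-0.58 log2, adjusted p = 0.0410) were kept and Colec12, Cfhr2 and C1qbp were lost. Over all genes, 436 were then higher and 575 lower in this comparison, against 1514 and 1706. For the interaction Colec12 and Vtn were kept and C1qbp was lost, although it stayed near its value (0.401 log2 before and 0.396 after).

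The proteases that C1q activates also rose with TAC. C1ra, which encodes C1r, was 193 to 217 in Sham-Veh and 349 to 383 in TAC-Veh (0.80 log2, adjusted p = 7.03e-04), and in TAC-THZ1 against Sham-THZ1 it was also higher (0.69 log2, adjusted p = 0.00653). C1s1, the next protease, was 0.46 log2 higher with TAC (adjusted p = 0.0411), a call lost without 1 library (adjusted p up to 0.0972). With THZ1 in TAC, C1ra and C1s1 each differed by 0.02 log2 and were not called. Masp1, a protease of the lectin pathway, rose by 0.81 for TAC (adjusted p = 9.55e-04) and was lower with the drug after TAC by a log2 difference of -0.48 (adjusted p = 0.0398), a call lost without replicate 1 of TAC-Veh (adjusted p = 0.115). Colec12, a collectin and scavenger receptor, was 393 to 422 in Sham-Veh. It rose to 729 to 966 in TAC-Veh (1.07 log2, adjusted p = 1.10e-06) and was 414 to 573 in TAC-THZ1, a log2 difference of -0.69 from TAC-Veh (adjusted p = 2.39e-04). Its interaction was -0.70 log2 (adjusted p = 0.00882), and C1rl, a C1r-like protease at 26.7 to 57.2 normalized counts, had a log2 fold change of 0.44 for TAC under vehicle and of -0.44 for the drug in constricted hearts. Both calls of C1rl were lost without 1 library (adjusted p up to 0.0887 and 0.122).

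Of the 8 regulators tested, Clu and Vtn passed in both comparisons, and no other did with THZ1 in TAC. Clu, which encodes clusterin, a chaperone that also blocks the membrane attack complex, was 11675 to 14518 in Sham-Veh. In TAC-Veh it was 37093 and 35243 in replicates 1 and 2 and 17550 in both others, and in TAC-THZ1 it was 12100 to 16594. Its log2 fold change was 0.97 for TAC (adjusted p = 0.00103), and the difference made by the drug after TAC was -0.87 (adjusted p = 0.00464). Vtn, which encodes vitronectin, another inhibitor of that complex, went the opposite way, by -0.50 for TAC (adjusted p = 4.54e-04) and by 0.58 for the drug after TAC (adjusted p = 5.02e-04). Cd59a, a membrane inhibitor of that complex, was lower with TAC by a log2 difference of -0.28 (adjusted p = 0.0459), which was lost without replicate 2 of TAC-Veh (adjusted p = 0.169).

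Of the receptors, Vsig4, a macrophage receptor for C3 fragments, had the largest rise, from 23.9 to 27.3 in Sham-Veh to 74.1 to 116 in TAC-Veh (1.72 log2, adjusted p = 4.11e-04). In TAC-THZ1 it was 161, 36.9, 85.4 and 52.5. Itgb2, the common chain of the leukocyte integrins that include complement receptors 3 and 4, was 0.66 log2 higher with TAC (adjusted p = 0.0371), a call lost without replicate 2 of Sham-Veh (adjusted p = 0.108). C1qbp, a mainly mitochondrial protein named for its binding of C1q, was 1815 to 2505 in TAC-Veh and 2795 to 3018 in TAC-THZ1 (0.43 log2, adjusted p = 7.83e-04). Cd93, a surface protein of endothelial and myeloid cells, was lower in TAC-THZ1 than in Sham-THZ1 by a log2 difference of -0.54 (adjusted p = 0.00659).

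Of the alternative and terminal pathways, 5 of the 10 listed genes passed the filter. Cfp, which encodes properdin, was 141 to 197 in TAC-Veh and 172 to 304 in TAC-THZ1 (0.47 log2, adjusted p = 0.0466). C7 was lower with THZ1 in TAC by a log2 difference of -0.86 (adjusted p = 0.0184) and C8g was higher by 0.81 (adjusted p = 0.0297), with C8g at group means of 15.4 and 27.1 normalized counts. C7, a component of the membrane attack complex, was at 536 normalized counts on average in TAC-Veh and 296 in TAC-THZ1. Without 1 library the calls of Cfp, C7, C8g and Cfhr2 were each lost, with adjusted p of up to 0.152, 0.0585, 0.0889 and 0.0720. Cfhr2 was at 5.95 in Sham-THZ1 and 13.8 in TAC-THZ1 on average (adjusted p = 0.0228). Hc, which encodes C5, had 14 reads over all libraries, Cfb, the protease of the alternative convertase, had 16 and C9 had 1, while C8a, C8b, Mbl1 and Mbl2 had none. For counting error alone, 0 reads in a library allow up to 3.

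**Figure D5:**
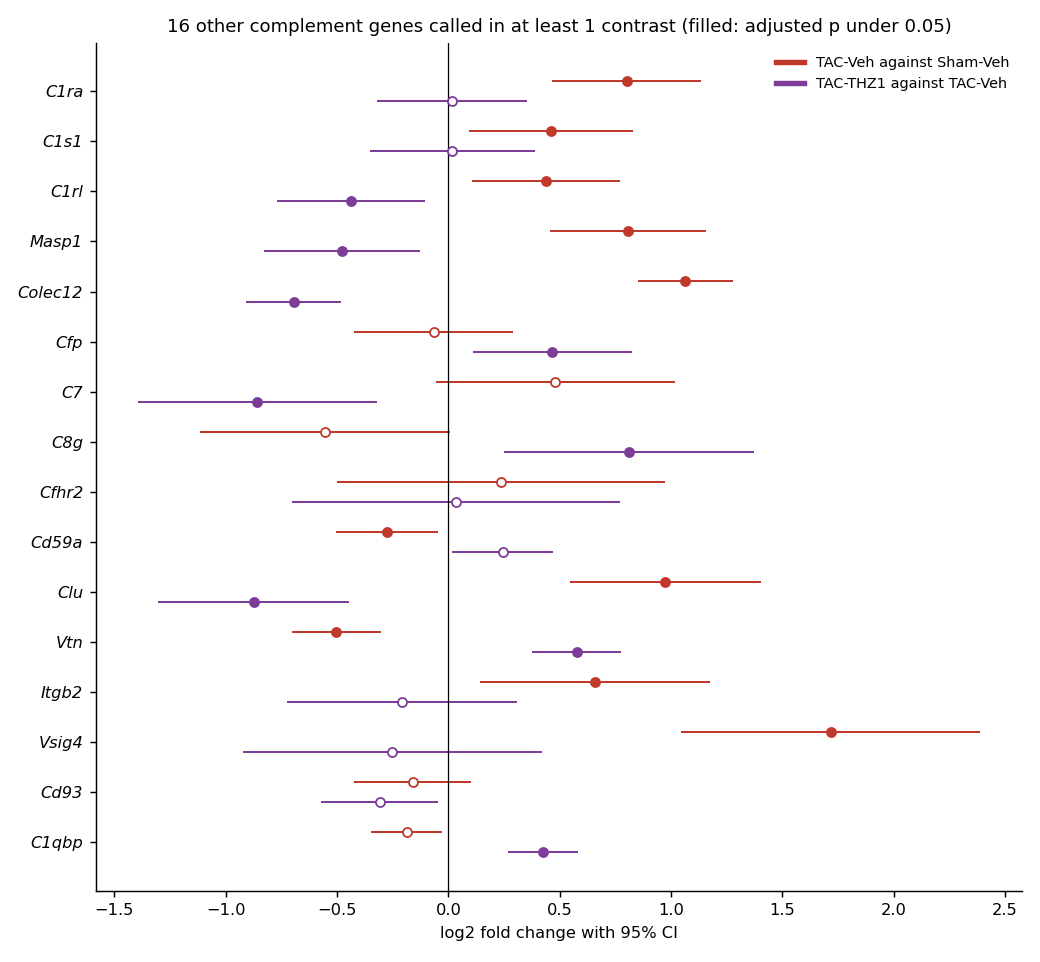
log2 fold changes (x axis) with 95% confidence intervals (CI) from limma for the 16 further complement genes called in at least 1 of 5 contrasts, for TAC under vehicle (red) and THZ1 in TAC (purple), which share the TAC-Veh libraries. Filled points have an adjusted p under 0.05. C1rl, Colec12, Clu and Masp1 are filled to the right for TAC and to the left for THZ1 in TAC, and Vtn is filled the other way round.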

How the data were processed

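RNA from ventricle pieces of 16 mice was sequenced with a stranded mRNA kit. Per the submitters' processing notes and the study's methods, the authors aligned reads to mm9 with TopHat 2.1.1, assigned them to GENCODE genes by htseq-count (reverse strand), and divided the counts by DESeq2 size factors. The deposited signal is thus 1 normalized count for each gene in each library. Every value was a whole multiple of a library-specific step, and dividing by it gave whole reads for 100% of values (tolerance 0.01). Libraries held 21.4 to 35.8 M (mega) reads by this measure, with size factors of 0.749 to 1.40. Gene positions were taken from the GENCODE annotation on NCBIM37, which all 22372 identifiers matched.

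Such values are not raw counts, and limma 3.58.1 (R 4.3.3) was applied to them as log2(value + 1), fitting the 4 group means to 16 libraries, with eBayes and a variance trend. A gene was tested when 4 or more libraries reached 10 normalized counts. Benjamini-Hochberg adjustment covered all 13331 genes tested in each of 5 contrasts, and calls were made at an adjusted p under 0.05. Fold changes are on the log2(value + 1) scale, which understates those of low genes. Counting precision is not limiting for the members, and replicates were different mice, with chi-square per degree of freedom of 3.06 to 98.3 between them. It was 3.06 to 7.82 within the sham groups and 10.7 to 98.3 within the TAC groups. The main fit takes 1 spread per gene from all 16 libraries and does not model this difference. For THZ1 in TAC it called 2019 genes higher and 1899 lower, against 583 and 816 with only those groups fitted. No batch was given in the labels. DESeq2 1.42.0 and edgeR 4.0.16 (quasi-likelihood) were run on recovered reads as alternatives. Other alternatives covered the pseudocount, the filter, scaling, the groups fitted, robust and weighted fits, the replicate number as a block, and each library left out. A further one, chosen after seeing the data, left out the libraries with more than 1000 normalized counts summed over neutrophil markers. The procedure was tested on simulated counts.

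The members, gene lists and markers were chosen with earlier results of these data known. Named genes were the 9 members, further complement genes called in any contrast, markers a result turned on, and the 3 genes of at least 100 mean normalized counts with the highest Pearson r to each profile. C8a, C8b, C9, Cfb, Hc, Mbl1, Mbl2 and Daf2 were named outside this rule, after their values were seen. A listed complement gene is not reported here. Promoter windows came from RefSeq (GRCm38.p6). Figures were drawn with Matplotlib 3.10.9.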

Additional observations from a re-analysis of the deposited data

Results flagged for a closer look

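Within groups, 36 sets of 4 values (9 transcripts in 4 groups) were examined for a library far from the other 3, and 1 was found, where chance alone gives about 1 in 20. It was Cd55 in Sham-THZ1 replicate 4, at 404 normalized counts against 349 to 354 in the other 3 libraries of the group. Between surgeries, Cd55 was the transcript for which the effect of THZ1 differed by a test of the difference itself, with an interaction of -0.51 on the log2 scale (adjusted p = 0.0429 with limma). Without Sham-THZ1 replicate 4 the interaction was -0.46 (adjusted p = 0.0904).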

How the results depend on the processing

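The 6 calls of members for TAC under vehicle were made under all alternatives run, with 6 to 7 members called without 1 library. For THZ1 in TAC the count of 1 became 0 when only those groups were fitted, 6 without the 2 neutrophil-rich libraries, and 1 to 3 without 1 library. The 4 calls for TAC under THZ1 became 0 without the neutrophil-rich libraries. For the interaction, the 1 call became 0 at an adjusted p under 0.01, without a filter on low values and with upper quartile scaling, 3 without the neutrophil-rich libraries, and 0 to 2 without 1 library. The replicate numbers did not pair the mice (correlations of deviations between same-numbered libraries of -0.43 to 0.16 in 24 pairs, the own number being highest in 7), and with a replicate block the interaction of Cd55 had an adjusted p of 0.0551, so 0 were called. For the other complement genes an adjusted p under 0.01 left 6 for TAC, 4 for THZ1 in TAC, 2 for TAC under THZ1 and 1 for the interaction. Fitting only the groups compared gave 3 for THZ1 in TAC and 1 (Vsig4) in sham. Over all genes that setting called 583 higher and 816 lower for THZ1 in TAC, and 287 and 178 in sham. For TAC under THZ1, DESeq2 gave 8 and the fit without the neutrophil-rich libraries 2, and for the interaction array weights gave 7, DESeq2 5 and that fit 8. Without 1 library these counts were 6 to 10 for TAC (6 without Sham-Veh replicate 2 or TAC-Veh replicate 2), 5 to 11 for THZ1 in TAC, 3 to 8 for TAC under THZ1 and 2 to 6 for the interaction.

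Signs changed only for differences that were not called. With array weights they were 0.026 (C1qa) and 0.016 (C1qb) in sham, and -0.022 (C3) and -0.14 (C3ar1) for the interaction. Without the neutrophil-rich libraries, C3 was at -0.30 for THZ1 in TAC, -0.36 for TAC under THZ1 and -0.58 for the interaction, C5ar1 at -0.19, -0.063 and -0.14, and C3ar1 at -0.23 for the interaction. Without 1 library, THZ1 in TAC was -0.31 to 0.030 (C1qa), -0.32 to 0.027 (C1qb), -0.28 to 0.067 (C1qc) and -0.32 to 0.16 (C3ar1). In sham it was -0.068 to 0.049, -0.10 to 0.062, -0.053 to 0.060 and -0.19 to 0.0087 for these genes and -0.094 to 0.015 for C5ar1. The interaction was -0.30 to 0.037, -0.30 to 0.049, -0.30 to 0.053 and -0.21 to 0.27, and -0.053 to 0.66 for C3. Apart from the effects of leaving libraries out, the cause was not tested. The interaction was not run with only the groups compared, since it uses all 4.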
